A study of Mus musculus with 12 samples.

Results

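The interferon-inducible GTPases followed here are 9 mouse genes, Gbp2, Gbp3, Gbp5, Gbp7, Gbp9, Igtp, Irgm1, Irgm2 and Iigp1, chosen by name and found by Entrez identifier among the 27179 genes of the count files. They were measured by RNA sequencing in AML246, a mouse acute myeloid leukemia without p53 that carries a hairpin against Spi1, the gene of the myeloid factor PU.1. The hairpin is linked to GFP and is shut down by doxycycline (Dox). C57BL/6 mice carrying the leukemia were left untreated or given Dox for 2, 4 or 6 days. The GFP-positive cells sorted from their bone marrow were GFPhigh in the untreated group, GFPhigh-mid on day 2, GFPmid on day 4 and GFPlow on day 6. Each of the 4 groups had 3 libraries. All groups carry the hairpin and lack p53, all come from the 1 leukemia, and the sources used here do not state the age of the mice. There was no Dox-treated group without the hairpin and the sort gate moved with the day, so Dox, hairpin shut-off and the gate cannot be told apart. The titles call the replicates technical and the design text speaks of mice, so p-values measure the spread between these libraries, which may be technical. In bulk RNA a change in the share of cells that express a gene and a change in RNA per cell cannot be told apart.

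These genes encode GTP-binding proteins of cell-autonomous defence. Guanylate-binding proteins (the Gbp genes) are large GTPases that assemble on the membranes around intracellular bacteria and parasites and help inflammasomes detect them. Immunity-related GTPases come as effectors, such as Iigp1, which load onto the vacuole of a parasite and break it, and as regulators, Irgm1, Irgm2 and Igtp, which sit on the cell's own membranes and restrain the effectors. Transcription of both families is driven by interferon gamma and, more weakly, by type I interferon. Promoters of such genes can carry gamma-activated sites, which answer to interferon gamma, and interferon-stimulated response elements, which IRF-containing complexes bind. Such genes are kept at a low level in resting myeloid cells and are raised in monocytes and macrophages.

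The promoters are shown first, because they show which interferon motif letters the members have in common. RefSeq (GRCm38.p6) windows from 250 bases before to 50 bases after the gene start were found for 7 of the 9 members. No window was found for Gbp9 and Iigp1. The stretch just upstream of the start is printed 5′ to 3′ on the gene's own strand, 110 bases long and 180 bases for Gbp5, with the letters of the response element core (GAAA, any 2 bases, GAAA, or the same read on the other strand) in capitals.
Gbp2 (chr3:142620553-142620662, plus strand): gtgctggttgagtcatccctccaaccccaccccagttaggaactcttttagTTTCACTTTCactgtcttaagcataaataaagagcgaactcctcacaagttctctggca
Gbp3 (chr3:142559934-142560043, plus strand): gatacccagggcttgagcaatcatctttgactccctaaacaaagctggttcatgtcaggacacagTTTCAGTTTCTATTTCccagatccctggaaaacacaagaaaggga
Gbp5 (chr3:142496754-142496933, plus strand): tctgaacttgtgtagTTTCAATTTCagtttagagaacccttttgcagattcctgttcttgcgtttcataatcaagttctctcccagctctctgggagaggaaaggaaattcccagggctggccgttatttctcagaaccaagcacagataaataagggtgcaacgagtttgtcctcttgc
Gbp7 (chr3:142530226-142530335, plus strand): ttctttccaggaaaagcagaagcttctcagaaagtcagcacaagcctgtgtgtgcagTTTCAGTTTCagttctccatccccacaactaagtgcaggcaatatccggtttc
Irgm1 (chr11:48871421-48871530, minus strand): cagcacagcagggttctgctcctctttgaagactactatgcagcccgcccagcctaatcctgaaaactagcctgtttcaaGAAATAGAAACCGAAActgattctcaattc
Igtp (chr11:58199446-58199555, plus strand): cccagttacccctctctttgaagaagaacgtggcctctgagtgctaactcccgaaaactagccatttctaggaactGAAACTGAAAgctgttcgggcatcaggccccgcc
Irgm2 (chr11:58214867-58214976, plus strand): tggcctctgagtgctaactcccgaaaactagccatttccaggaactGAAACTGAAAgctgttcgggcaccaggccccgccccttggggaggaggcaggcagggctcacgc
All 7 members with a window held the response element core upstream of the start, against 3.99% of the 27025 genes with a window. It began 59 bases upstream of the start in Gbp2, 53 in Gbp7, 34 in Igtp, 64 in Irgm2 and 165 in Gbp5. In Gbp3 and Irgm1 a pair of overlapping cores stood 45 and 39 bases and 30 and 24 bases upstream. The Gbp3 distances are counted from the start that follows its printed stretch. That stretch ends at 142560043, inside the gene's own span, which begins at 142560016. Gbp3 has a further window at another start, which did not hold the core. The gamma-activated site TTCNNNGAA was found in 4 of the 7, Gbp5, Gbp7, Igtp and Irgm2, against 9.55% of genes. The ETS-IRF composite element (GGAA, any 2 bases, GAAA), the letters of joint PU.1 and IRF sites, was found in Gbp5, Igtp and Irgm2 against 3.16% of genes. In Igtp and Irgm2 it overlapped both the gamma-activated site and the response element. The PU.1 core GAGGAA was found in Gbp3 (at the further start), Gbp5, Gbp7 and Irgm2 against 31.3% of genes. In Gbp5 it overlapped the composite element. All motifs were searched on both strands. A match describes letters only, and binding was not measured. Igtp and Irgm2 are neighbours on chromosome 11. With their response elements lined up, 68.1% of 270 bases are identical. The longest unbroken identical run is 61 bases and does not include the response element, as the printed letters differ on either side of it. In both genes the gamma-activated site begins 11 bases before the response element.

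**Figure D1:**
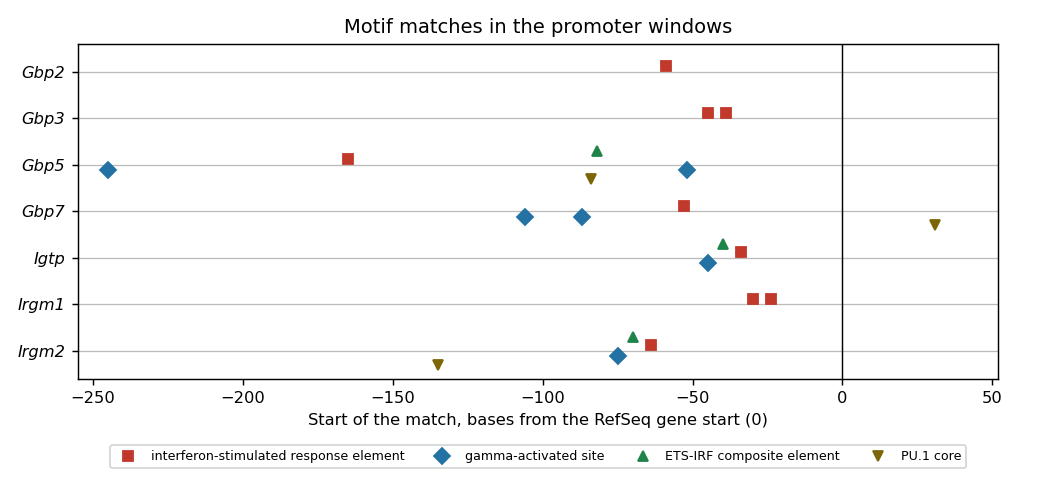
Positions of the 4 motifs in the promoter windows of 7 members, as the start of each match in bases from the RefSeq gene start (0 on the x axis, 1 row per gene, 1 symbol per motif). Every row has a response element core, and in Igtp and Irgm2 it stands beside a gamma-activated site and a composite element. For Gbp3, 0 is the start that follows its printed stretch, and its further window is not drawn.

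The libraries held 4918920 to 7356166 counts, so 3 counts, the level taken as the floor, corresponded to 0.408 to 0.610 CPM, counts scaled to a common library size. This limit covers counting error alone. Day 6 replicate 2 stood apart from the other day 6 libraries. Between it and them the variance was 44.1 and 38.3 times that of counting error, against 2.62 to 10.5 in the other pairs of replicates. Of the markers of myeloid leukemia, Mpo, Elane, Prtn3, Ctsg, Kit and Myb were abundant in untreated cells, while Cd34 was at 1.15 to 5.81 CPM and Ptprc, the pan-leukocyte gene CD45, at 7.37 to 25.2 CPM. Values below are CPM scaled with TMM factors, as mean ± SD of 3 libraries unless single libraries are given. A gene was called when its edgeR quasi-likelihood p, adjusted by Benjamini-Hochberg over all 12057 genes tested, was under 0.05.

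All 9 members passed the filter on low counts and were tested. On day 2 none was called by edgeR, where 1.45% of all tested genes were (1.05% higher and 0.406% lower). None had an unadjusted p under 0.05, and DESeq2 and limma voom called 0 as well. On day 4, 7 of the 9 were higher than in untreated cells and none was lower, against 42.4% of all tested genes called, 22.1% higher and 20.2% lower. On day 6, 6 were higher and 2 lower, against 67.9% of all tested genes called, 35% higher and 32.9% lower. From day 2 to day 4, 6 members rose and none fell, against 15% and 10.2% of all tested genes. From day 4 to day 6, 2 rose and 3 fell, where 46.3% of genes were called, 23.6% higher and 22.6% lower. From day 2 to day 6, 6 rose and 2 fell, against 32% and 30% of genes. The median log2 fold change of the 9 was 0.06 on day 2, 1.15 on day 4 and 1.54 on day 6, beside -0.00, -0.01 and -0.00 over all tested genes. All 9 were called in the test of any change over the 4 groups, which called 68.7% of genes. The members are described in 3 groups by their calls against untreated cells and their highest mean. Igtp, Irgm1, Irgm2, Gbp7 and Gbp9 were called higher on day 4 and on day 6, with the highest mean on day 6. Gbp2 and Iigp1 were called higher on day 4 and had their highest mean then. Gbp2 was also called higher on day 6, and its step from day 4 to day 6 was not called. Gbp3 and Gbp5 were called only as lower, on day 6, though day 4 replicate 1 was their highest library too.

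**Figure D2:**
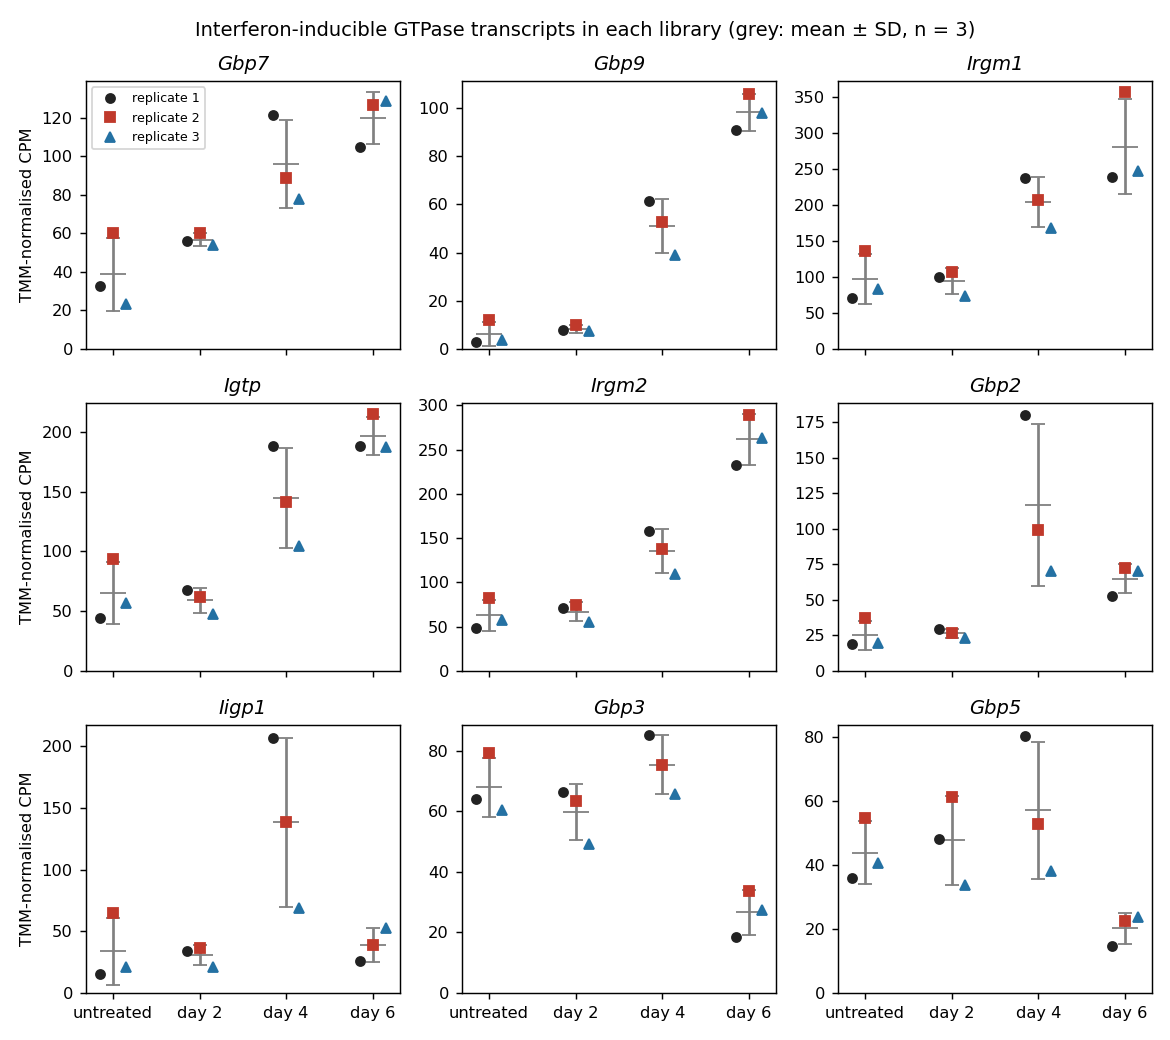
Level of each member in each library (y axis: TMM-normalised CPM from 0, x axis: group, 3 symbols for the 3 replicates, grey bar mean ± SD). The first 5 panels rise on day 4 and stay high, Gbp2 and Iigp1 are highest in day 4 replicate 1 (180.1 and 207 CPM), and Gbp3 and Gbp5 are lowest on day 6.

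Among the regulatory immunity-related GTPases, Irgm1 (ID 15944, chromosome 11, 48865245 to 48871420), which guards lysosomes and mitochondria and is needed for resistance to mycobacteria, stood at 70.9, 136 and 83.0 CPM in the untreated libraries. It was at 100.1, 107 and 73.0 CPM on day 2, 238, 207 and 167 CPM on day 4 and 238, 357 and 247 CPM on day 6. Every day 4 library lay above every untreated and day 2 library, and day 6 replicate 2 was the highest of the 12. Irgm1 rose against untreated cells by 1.08 ± 0.25 on the log2 scale on day 4 (SE; edgeR adjusted p = 0.00573) and by 1.54 ± 0.26 on day 6 (adjusted p = 2.45e-04). Its step from day 4 to day 6 was not called (log2 fold change 0.46, edgeR adjusted p = 0.151).

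Igtp (ID 16145, chromosome 11, 58199556 to 58207592), also named Irgm3 and found on lipid droplets and the endoplasmic reticulum, had 44.2, 94.0 and 57.0 CPM in untreated cells. It had 68.0, 61.7 and 47.7 CPM on day 2, 188, 142 and 105 CPM on day 4 and 188, 215 and 187 CPM on day 6. Untreated replicate 2 stood close to the lowest day 4 library, and the groups did not overlap. The log2 fold change was 1.15 ± 0.27 on day 4 (edgeR adjusted p = 0.00568) and 1.60 ± 0.27 on day 6 (adjusted p = 3.06e-04). In a fit of the untreated and day 4 libraries alone the day 4 call was lost (edgeR adjusted p = 0.0504).

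Irgm2 (ID 54396, chromosome 11, 58214977 to 58222783) lies 7384 bases from Igtp and encodes a Golgi-associated regulator. Its untreated libraries held 48.6, 82.1 and 57.2 CPM and its day 2 libraries 70.6, 74.9 and 55.2 CPM. On day 4 they held 158, 137 and 109 CPM and on day 6 232, 289 and 263 CPM. Irgm2 had a log2 fold change of 1.11 ± 0.19 on day 4 (edgeR adjusted p = 8.15e-04) and 2.06 ± 0.20 on day 6 (adjusted p = 2.38e-06). Its step from day 4 to day 6 was 0.95 ± 0.19 (edgeR adjusted p = 0.00168, or 0.0697 when tested against a 1.5-fold change), beside 0.46 in Irgm1 and 0.45 in Igtp. The difference between these steps was not tested. The ratio of Irgm2 to Igtp was 0.874 to 1.10 in untreated libraries, 1.04 to 1.21 on day 2, 0.843 to 1.05 on day 4 and 1.23 to 1.41 on day 6. The highest day 2 ratio was close to the lowest on day 6. The day 6 ratios lay above the untreated ones (exact two-sided permutation p = 0.1, the smallest that 3 against 3 libraries can give). Of the 50-base windows in Igtp transcripts 11.8% also occur in Irgm2, so some reads of this pair may not be told apart.

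Gbp9 (ID 236573, chromosome 5, 105076464 to 105110357), from the second Gbp cluster of the mouse, showed the widest change of the 9. Its level was 2.84, 11.8 and 3.59 CPM in untreated cells and 7.59, 10.1 and 7.21 CPM on day 2. It was 61.4, 52.6 and 39.0 CPM on day 4 and 90.8, 106 and 98.0 CPM on day 6. Means of 6.09 ± 4.99 CPM in untreated cells and 98.3 ± 7.62 CPM on day 6 are 16.2-fold apart. Without untreated replicate 2 the log2 fold change of Gbp9 was larger, 3.98 on day 4 and 4.93 on day 6. The log2 fold change was 3.06 ± 0.38 on day 4 (edgeR adjusted p = 1.11e-04) and 4.00 ± 0.38 on day 6 (adjusted p = 4.42e-06). Its step from day 4 to day 6 (log2 fold change 0.95, edgeR adjusted p = 0.0298) lost the call without day 4 replicates 2 or 3 or any 1 day 6 library (adjusted p = 0.0572 to 0.105), under library totals (0.154), with upper-quartile factors (0.0573) and without the filter (0.0738).

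Gbp7 (ID 229900, chromosome 3, 142530336 to 142550151), linked to the assembly of the NADPH oxidase on bacterial vacuoles, had 32.5, 59.9 and 23.4 CPM in untreated cells. It had 56.0, 60.0 and 53.6 CPM on day 2, 121, 88.4 and 77.5 CPM on day 4 and 104, 126 and 129 CPM on day 6. The day 4 and day 6 libraries all lay above the untreated ones and overlapped each other. The log2 fold change was 1.31 ± 0.28 on day 4 (edgeR adjusted p = 0.00344) and 1.63 ± 0.28 on day 6 (adjusted p = 3.53e-04). Of its 50-base transcript windows 12.7% occur in other genes, chiefly the gene model Gm43802 (10.5%).

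Gbp7 and Gbp9 were also the members whose day 2 result turned on 1 library. With all libraries their day 2 log2 fold changes of 0.55 and 0.42 were not called (edgeR adjusted p = 0.416 and 0.726). Without untreated replicate 2 they were 1.02 and 1.35 and were called (adjusted p = 0.0398 and 0.0422).

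**Figure D3:**
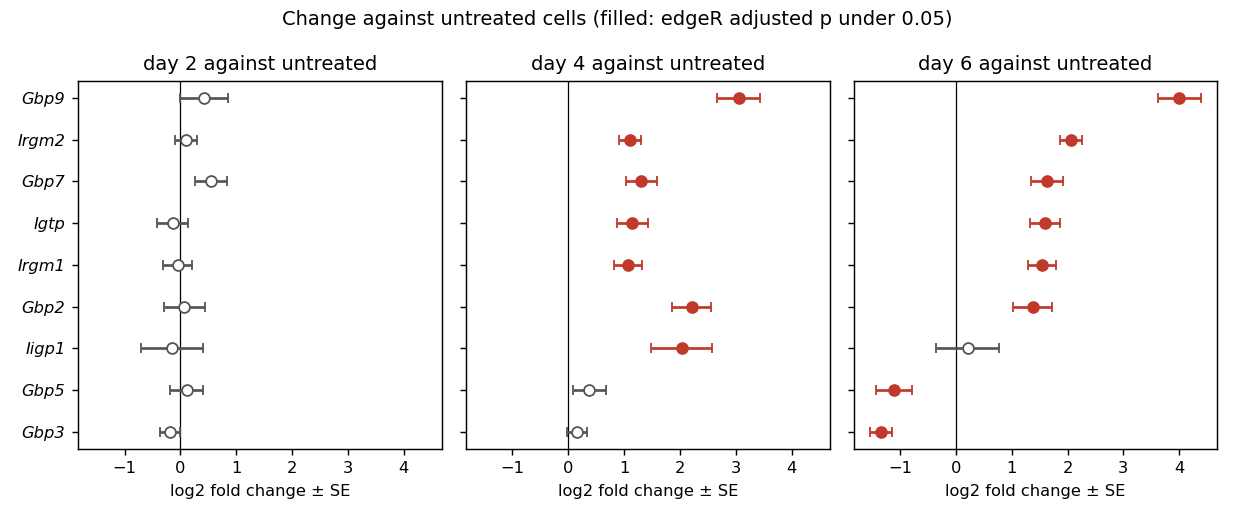
Log2 fold change against untreated cells (x axis, ± SE from edgeR) of the 9 members on day 2, day 4 and day 6. Filled points passed an adjusted p of 0.05. No point is filled on day 2, 7 lie to the right on day 4, and on day 6 Gbp3 and Gbp5 lie to the left.

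Gbp2 (ID 14469, chromosome 3, 142620663 to 142638008), a lipid-anchored protein recruited to the vacuole of Toxoplasma and to bacteria, was highest on day 4. Its untreated libraries held 19.1, 36.9 and 19.3 CPM and its day 2 libraries 29.2, 26.9 and 22.9 CPM. On day 4 they held 180.1, 98.9 and 70.3 CPM, and on day 6 52.9, 72.0 and 69.9 CPM. Replicate 1 set the day 4 mean of 116 ± 56.9 CPM, and the lowest day 4 library lay within the day 6 range. Gbp2 rose by 2.21 ± 0.35 on the log2 scale on day 4 (edgeR adjusted p = 6.50e-04) and by 1.37 ± 0.36 on day 6 against untreated cells (adjusted p = 0.00553). Between day 4 and day 6 the log2 fold change of -0.84 was not called (edgeR adjusted p = 0.0612). DESeq2 did call it (adjusted p = 0.0233), as did edgeR with library totals (0.00884), with upper-quartile factors (0.0300), without untreated replicate 2 (0.0327) and without day 4 replicate 3 (0.0155).

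Iigp1 (ID 60440, chromosome 18, 60373616 to 60392634), the effector also named Irga6, was called higher than untreated cells on day 4 only. It stood at 15.2, 65.0 and 20.98 CPM in untreated cells, 33.7, 36.8 and 21.4 CPM on day 2, 207, 139 and 69.1 CPM on day 4 and 25.6, 38.7 and 52.7 CPM on day 6. The untreated and day 4 groups were separated by 1 narrow gap, between untreated replicate 2 and day 4 replicate 3. Iigp1 rose by 2.03 ± 0.55 on the log2 scale on day 4 (edgeR adjusted p = 0.0128), a call lost in a fit of those groups alone, where the log2 fold change was also 2.03 (0.0873). Without untreated replicate 2 it was 2.93. It fell by 1.82 ± 0.55 from day 4 to day 6 (edgeR adjusted p = 0.0200). On day 6 it did not differ from untreated cells beyond the spread (log2 fold change 0.21 ± 0.56, edgeR adjusted p = 0.754), nor without untreated replicate 2 (1.11, adjusted p = 0.0601). The fall was not called without day 4 replicate 1, day 6 replicate 1 or day 6 replicate 2 (edgeR adjusted p = 0.0748, 0.0821 and 0.0726) or without the filter on low counts (0.0523). Its rise over day 2 was not called without day 2 replicate 3 (adjusted p = 0.0617). Of all tested genes, 3.25% were called both higher on day 4 than untreated and lower on day 6 than day 4.

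Gbp3 (ID 55932, chromosome 3, 142560016 to 142573213) ranked after Irgm1 and Igtp per gene length before Dox and fell between day 4 and day 6. It held 64.1, 79.1 and 60.5 CPM in untreated cells, 66.4, 63.5 and 49.3 CPM on day 2, 85.1, 75.4 and 65.8 CPM on day 4 and 18.6, 33.6 and 27.5 CPM on day 6. The day 6 libraries lay below all 9 others. The log2 fold change was 0.15 ± 0.18 on day 4 (edgeR adjusted p = 0.533) and -1.34 ± 0.20 on day 6 (adjusted p = 6.38e-05), a 2.56-fold lower mean.

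Gbp5 (ID 229898, chromosome 3, 142496934 to 142522344), a promoter of inflammasome assembly, was likewise called only as lower. It held 35.9, 54.7 and 40.7 CPM in untreated cells, 48.1, 61.1 and 33.6 CPM on day 2, 80.3, 52.8 and 38.0 CPM on day 4 and 14.5, 22.3 and 23.6 CPM on day 6. On day 4 its libraries overlapped the untreated ones. The log2 fold change was 0.38 ± 0.29 on day 4 (edgeR adjusted p = 0.319) and -1.11 ± 0.32 on day 6 (adjusted p = 0.00863). The fall from day 4 to day 6 was 1.49 on the log2 scale in Gbp5 (edgeR adjusted p = 0.00282) and also in Gbp3 (adjusted p = 9.79e-05). The 6 higher and 2 lower calls on day 6 were made for the same genes with every other scaling, and with each library left out. Tested against a 1.5-fold change, Gbp5 alone lost its call (edgeR adjusted p = 0.0568). Library totals shifted the median of all genes by -0.51 on the log2 scale and upper-quartile factors by -0.25.

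Gbp5, Gbp7, Gbp3 and Gbp2 follow each other on chromosome 3. Gbp7 lies 7991 bases after Gbp5 and 9864 bases before Gbp3. These neighbours parted by day 6. Within a library the ratio of Gbp7 to Gbp3 was 0.507, 0.757 and 0.387 in untreated cells, 0.844, 0.945 and 1.09 on day 2, 1.43, 1.17 and 1.18 on day 4, and 5.63, 3.77 and 4.67 on day 6. Each group lay above the group before it. The ratio of Gbp7 to Gbp5 was 0.576 to 1.09 in untreated libraries and 5.45 to 7.21 on day 6. For both ratios the exact two-sided permutation p, day 6 against untreated, was 0.1, the smallest possible. These ratios do not depend on the scaling of the libraries and were chosen after the values were seen. Of the 50-base windows of Gbp3 transcripts 3.75% occur in Gbp7.

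Levels can be set against each other only per gene length, here as RPKM, CPM divided by the gene's length in kilobases. In untreated cells Irgm1 stood at 43.4 ± 15.6 RPKM, Igtp at 32.2 ± 12.8, Gbp3 at 25.7 ± 3.73, Irgm2 at 17.8 ± 4.95 and Gbp5 at 14.5 ± 3.24 RPKM. Iigp1 (10.8 ± 8.71 RPKM), Gbp2 (10.2 ± 4.16), Gbp7 (6.95 ± 3.42) and Gbp9 (1.68 ± 1.37) followed. Neighbours in this order overlapped in their libraries, apart from Gbp9, whose highest library (3.26 RPKM) lay below the lowest of Gbp7 (4.22). On day 6 the 3 regulators led, Irgm1 at 126 ± 29.8, Igtp at 97.4 ± 7.89 and Irgm2 at 74.4 ± 8.13 RPKM. Gbp9 was at 27.1 ± 2.10, Gbp2 at 26.4 ± 4.27, Gbp7 at 21.6 ± 2.41, Iigp1 at 12.5 ± 4.34, Gbp3 at 10.1 ± 2.87 and Gbp5 at 6.67 ± 1.63 RPKM. The libraries of Igtp and Irgm2 did not overlap on day 6 (lowest Igtp 92.5, highest Irgm2 82.3 RPKM). By their means Gbp9 moved from the ninth place to the fourth and Gbp3 from the third to the eighth. On day 6 the libraries of Gbp9 lay within the range of Gbp2, and those of Gbp3 overlapped Iigp1.

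**Figure D4:**
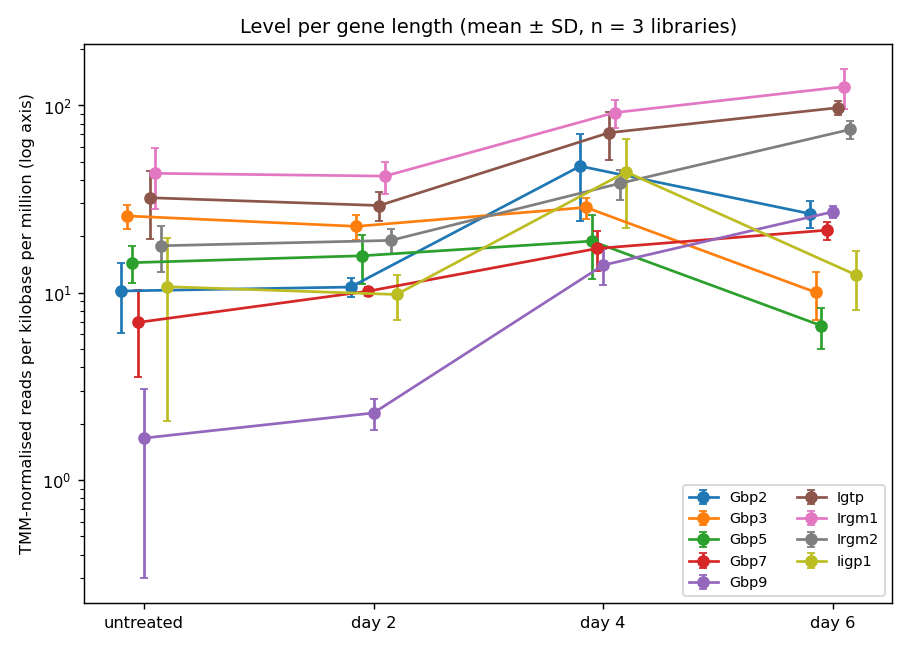
Level per gene length of the 9 members (y axis: TMM-normalised RPKM on a log axis, x axis: group, points mean ± SD of 3 libraries, lines join the means). The lines of Gbp9 and Gbp3 cross between day 4 and day 6, when Gbp9 reaches 27.1 RPKM and Gbp3 falls to 10.1 RPKM.

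The libraries of a group were not alike in these genes. Untreated replicate 2 held the highest untreated level of all 9 members, against 38.1% of all tested genes. Its level was 1.27 times the mean of the other untreated libraries for Gbp3, 3.60 times for Iigp1 and 3.68 times for Gbp9. The same library was highest for 28 of 28 tested type I interferon-stimulated genes and 17 of 19 other interferon-gamma-responsive genes. On day 4 replicate 1 was the highest and replicate 3 the lowest in all 9 members, an arrangement found in 18.8% of all tested genes. Day 4 replicate 1 exceeded replicate 3 by 1.29-fold in Gbp3, 2.56-fold in Gbp2 and 2.99-fold in Iigp1. The arrangement held for 13 of 19 other interferon-gamma-responsive genes and 14 of 18 other GBP, IRG and Mx genes, but for 9 of 28 type I genes. It was not limited to interferon targets, as it held for 6 of 9 tested myeloid progenitor markers. Of 9 tested monocyte and macrophage markers 1 showed it. It held for 6 of 16 tested genes for receptors, JAK kinases, STATs and IRF factors and for 1 of 9 inhibitors of the interferon signal. That inhibitor was Socs1, at 12.9, 9.77 and 2.20 CPM in the day 4 libraries. The class II transactivator Ciita, at 2.70, 1.31 and 0.294 CPM, did not pass the filter and rests on 18, 9 and 2 counts. What set these libraries apart was not tested.

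**Figure D5:**
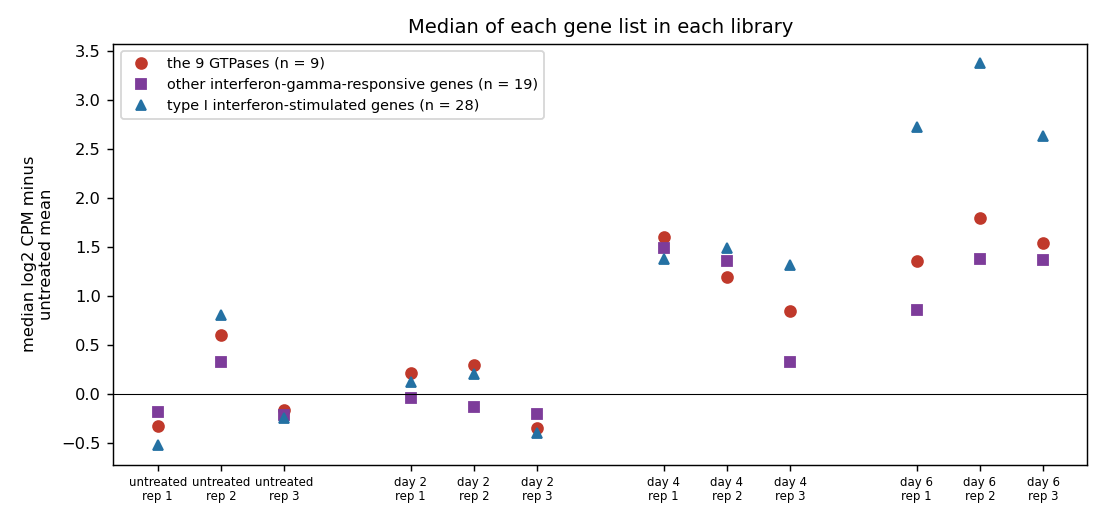
Median over the genes of each list, in each library, of log2 CPM minus the gene's mean in untreated libraries (y axis; x axis: the 12 libraries by group). Untreated replicate 2 is the highest untreated point of all 3 lists. On day 4 the GTPases go from 1.60 in replicate 1 to 0.85 in replicate 3, while the type I genes stay between 1.31 and 1.48. On day 6 the type I genes lie at 2.63 to 3.37 and the GTPases at 1.36 to 1.79.

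The other genes of these families included more that rose than fell. Of 21 other GBP, IRG and Mx genes 18 were tested. On day 2 edgeR called 0 of them (1 at an unadjusted p under 0.05, 1 by DESeq2, 0 by limma voom). On day 4, 10 were higher and none lower (22.1% and 20.2% of all tested genes), with a median log2 fold change of 1.43. On day 6, 9 were higher and 2 lower (35% and 32.9% of all tested genes), with a median of 1.15. Gbp4, like Gbp9 on the chromosome 5 cluster, went from 1.92 ± 1.72 CPM in untreated cells to 20.996 ± 13.1 on day 4 and 32.9 ± 13.4 on day 6. Gm5431 went from 0.561 ± 0.636 CPM to 7.46, 35.5 and 8.98 CPM in the day 6 libraries, so that replicate 2 set its day 6 mean of 17.3 CPM. The gene models 9930111J21Rik1 (3.38 ± 2.14 to 48.9 ± 7.46 CPM on day 6) and 9930111J21Rik2 (1.13 ± 0.596 to 10.5 ± 1.82 CPM) also rose. The 2 that were lower on day 6 were F830016B08Rik, from 2.16 ± 1.54 CPM untreated and 5.71 ± 2.17 CPM on day 4 to 0.693 ± 0.415 CPM, and Irgq, from 44.9 ± 5.27 to 28.1 ± 2.55 CPM. Many of these genes are close paralogs, and their reads may be shared.

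Transcripts of the interferons themselves were at or near 0. Of 12 ligands and inducing cytokines 4 passed the filter. Ifng had 0 counts in all untreated and day 2 libraries, 1, 1 and 0 counts on day 4 and 0, 0 and 4 counts on day 6, and Ifnb1 had 3 counts in all 12 libraries. Among the 4 tested, the cytokine subunit gene Il27 went from 0.0464 ± 0.0804 CPM in untreated cells, a single count, to 4.64 ± 1.65 CPM on day 6, and Tnf from 2.32 ± 0.763 to 20.3 ± 6.13 CPM. Il18 went from 0.938 ± 0.651 to 4.11 ± 2.61 CPM. Il12a, a subunit of interleukin 12, fell from 32.1 ± 5.02 to 2.53 ± 0.383 CPM.

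The receptor subunits for interferon gamma moved in opposite directions. Ifngr1, the ligand-binding chain, held 1114, 1041 and 1037 CPM in untreated cells and 684, 621 and 737 CPM on day 2. It fell further to 592, 543 and 467 CPM on day 4 and 348, 303 and 357 CPM on day 6. Each group lay below the one before it. Its log2 fold change was -0.64 ± 0.11 on day 2 (edgeR adjusted p = 0.0119) and -1.66 ± 0.11 on day 6 (adjusted p = 8.67e-08). Ifngr2, the signalling chain, held 19.9, 25.2 and 26.9 CPM in untreated cells and 36.0, 43.7 and 35.1 CPM on day 2. It rose to 83.0, 95.1 and 115 CPM on day 4 and 133, 162 and 142 CPM on day 6. Its log2 fold change was 0.67 ± 0.15 on day 2, not called (edgeR adjusted p = 0.0538), and 2.60 ± 0.15 on day 6 (adjusted p = 3.43e-08).

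Of 16 tested genes for receptors, JAK kinases, STATs and IRF factors, 12 were higher and 1 lower on day 4, and 13 were higher and 2 lower on day 6, with medians of 0.88 and 1.05. Irf1, the factor that acts on Gbp promoters, rose from 66.3 ± 9.38 to 166 ± 38.8 CPM on day 4 and 189 ± 7.24 on day 6. Stat2 reached 324 ± 123 CPM and Irf7 726 ± 293 CPM on day 6 from 82.2 ± 18.5 and 82.6 ± 52.1 CPM. Irf8, the monocyte factor that pairs with PU.1 on composite elements, had 711 ± 228 CPM in untreated cells, 601 ± 93.1 on day 4 and 145 ± 77.3 on day 6. It was not called on day 4 (edgeR adjusted p = 0.605) and was lower on day 6 (log2 fold change -2.28 ± 0.36, adjusted p = 2.24e-04). Of 9 inhibitors of the signal 4 were higher and none lower on day 4, among them Socs1 and Usp18. On day 6, 6 were higher and Socs3 was lower. Beside the counts of both lists, 42.4% of all tested genes were called on day 4 (22.1% higher and 20.2% lower). On day 6 67.9% were (35% higher and 32.9% lower).

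The 9 GTPases share no gene with the lists of other interferon targets. Of 19 tested interferon-gamma-responsive genes 10 were higher and 1 lower on day 4, and 12 were higher and none lower on day 6. The medians were 1.28 and 1.18. Of all tested genes 22.1% were higher and 20.2% lower on day 4, and 35% and 32.9% on day 6. The antigen presentation gene Cd74 went from 4.24 ± 0.574 CPM in untreated cells to 34.9 ± 16.8 on day 4 and 58.2 ± 31.1 on day 6. Fcgr1, an Fc receptor that monocytes also express, went from 2.48 ± 2.44 CPM to 245 ± 23.0 on day 4. Tap2, a peptide transporter subunit, was the gene lower on day 4 (248 ± 63.0 to 165 ± 13.4 CPM). Of 28 tested type I interferon-stimulated genes 21 were higher on day 4 and 27 on day 6, and none was lower. Their median log2 fold change was 1.32 on day 4 and 2.87 on day 6, beside 1.15 and 1.54 in the GTPases. Between day 4 and day 6, 21 of the 28 rose further and none fell, while 2 of the 9 GTPases rose and 3 fell. Of all tested genes 23.6% rose and 22.6% fell in that step. The set of GTPases called in it was kept under 10 of 22 alternative ways of processing. The comparisons share their libraries, and the difference between the lists was not tested. Oas3, an antiviral RNA sensor enzyme, held 34.0 ± 28.0 CPM in untreated cells, 189.7 ± 4.42 on day 4 and 903 ± 150.1 on day 6.

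GBP and IRG proteins are placed on membranes with the help of the autophagy conjugation machinery. Of 12 such genes tested, 2 were higher and 2 lower on day 4, and 8 were higher and 2 lower on day 6. Of all tested genes 42.4% were called on day 4 and 67.9% on day 6. Gabarap went from 30.2 ± 4.08 to 61.6 ± 5.29 CPM and Atg3 from 70.8 ± 6.31 to 144 ± 16.4 CPM on day 6. Atg12 fell from 247 ± 32.8 CPM to 136 ± 6.94 on day 2 and 87.7 ± 8.12 on day 6, and Gabarapl1 from 49.1 ± 5.45 to 19.6 ± 4.77 CPM on day 6. Of 12 inflammasome and lytic death genes 8 were higher and none lower on day 4, against 22.1% and 20.2% of all tested genes. On day 6, 8 were higher and 2 lower, against 35% and 32.9%. Gsdmd, the pore-forming gasdermin, rose from 55.1 ± 8.87 to 139.5 ± 17.5 CPM on day 6, and Nlrc4, Naip5 and the nucleic acid sensor Zbp1 rose as well. Aim2, the DNA sensor whose activation Gbp proteins aid in bacterial infection, fell from 48.6 ± 1.21 to 29.2 ± 6.53 CPM, and Ninj1 from 143 ± 41.9 to 78.5 ± 14.7 CPM.

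The genes most like the members were sought by Pearson's r of log2 CPM over the 12 libraries. The libraries share groups, so r mostly reflects the 4 group levels and is a description. To the mean standardised profile of the 9, the nearest tested genes outside the list were Tgtp2, another immunity-related GTPase (r = 0.98), the complement gene C4b (0.97), the necroptosis gene Mlkl (0.96), Parp11 (0.95), the apoptosis effector Bak1 (0.93) and the IRG gene model Gm12250 (0.93). C4b held 128, 67.4 and 37.1 CPM in the day 4 libraries, the arrangement seen in the GTPases. It was picked for its likeness to them over the same libraries, so this arrangement is no separate result. The nearest gene to Igtp was Irgm1 (r = 0.99), to Irgm1 Zbp1 (0.99), to Irgm2 the DNA sensor Cgas (0.99) and to Gbp9 Sec11c (0.99). Gbp2 was nearest to C4b (r = 0.97), Gbp7 to Hnrnpul2 (0.96) and Iigp1 to Gm4951 (0.95), with which it shares 1.47% of its transcript windows. Gbp3 was nearest to Tfec (r = 0.97), a myeloid factor of the MITF family, and Gbp5 to Macroh2a1 (0.96). Among the members r was 0.90 to 0.99 between Gbp7, Gbp9, Igtp, Irgm1 and Irgm2, which were grouped by the same values. Gbp2, described in another group, had r of 0.76 to 0.87 with each of these genes. Between Gbp3 and Gbp5 r was 0.94, and between Gbp3 and Irgm2 it was -0.62.

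Markers of several cell types moved over the same course. Of 9 tested markers of monocytes and macrophages, cells that express GBP and IRG genes, none was called on day 2. On day 4, 7 were higher and none lower, against 22.1% and 20.2% of all tested genes. On day 6, 7 of these markers were higher and 1 lower, against 35% and 32.9%. Their summed level was 3542 to 4749 CPM in untreated libraries, 3661 to 4752 on day 2, 6055 to 6206 on day 4 and 2631 to 4119 on day 6, mostly from Ly6c2. Csf1r was at 58.4 to 119 CPM in untreated cells, 227 to 359.5 on day 2 (edgeR adjusted p = 0.0503), 698 to 913 on day 4 and 284 to 727 on day 6. None of the 10 was at 0 in all libraries of a group. Of the 9 myeloid progenitor markers 6 were lower on day 6 and 2 were higher. Among the lower ones Mpo went from 18038 ± 1186 to 4169.8 ± 425 CPM. The higher ones were Ptprc and Spi1, the gene the hairpin targets. Ptprc went from 14.4 ± 9.52 CPM in untreated cells to 609 ± 65.4 on day 6. Spi1 went from 62.5 ± 7.29 CPM in untreated cells to 458 ± 33.9 on day 6. All 3 tested endothelial and stromal markers of 8 listed were lower on day 6, and their list's sum was 229.5 to 342 CPM in untreated libraries and 24.99 to 33.3 CPM on day 6. Of these Pdgfrb, which pericytes and stromal cells express, fell from 196 ± 47.2 to 5.65 ± 1.93 CPM. The markers of this list that were not tested had few counts. Cdh5, Kdr, Col1a2 and Lepr had 0 to 3 counts in each untreated library. Col1a1 had 0, 6 and 4 counts in the untreated libraries and 18, 12 and 9 on day 6. The part of these cell types in the GTPase changes was not tested. Markers of lymphocytes, which make interferon gamma, were mixed. Summed T cell markers (2 of 10 tested) were 27.5 to 48.7 CPM in untreated libraries, 50.2 to 70.8 on day 2, 80.0 to 93.9 on day 4 and 49.6 to 96.1 on day 6, mostly from Thy1 and Cd28 outside day 6 replicate 2. Cd3e had 16 counts in all, 14 of them in day 6 replicate 2, the library that also held 129 of 165 counts of Lck. Summed NK cell markers (5 of 9 tested) were 62.6 to 99.4, 84.7 to 138, 73.7 to 146 and 49.7 to 134 CPM in the 4 groups, mostly from Nkg7 and Klrk1. Nkg7, a granule protein gene, had 52.9 ± 14.7 CPM in untreated cells and 62.1 ± 25.9 on day 6 and was not called. Of the 5 tested NK cell markers 2 were called higher and 1 lower on day 6, with a median log2 fold change of 1.78. The lower one was Klrk1, the receptor NKG2D (23.2 ± 5.18 to 9.47 ± 4.61 CPM). Gzmb had 20, 24 and 21 counts in the untreated libraries and 57, 3 and 100 on day 6. Prf1 had 4, 7 and 8 counts in the untreated libraries and 22, 3 and 40 on day 6. Gzma, the granzyme of NK and cytotoxic T cells, was at 4.35, 7.87 and 0.587 CPM in the day 4 libraries and 15.8, 0.804 and 23.4 CPM on day 6. Ncr1, Klrb1c and Klrd1 were under 2 CPM in every library. Without day 6 replicate 2 the same 8 members were called on day 6 as with it. Summed plasmacytoid dendritic markers (1 of 6 tested) were 114 to 134 CPM in untreated libraries and 37.3 to 62.0 on day 6, nearly all from Tcf4.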

How the data were processed

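RNA of sorted AML246 cells was sequenced in 12 libraries, 3 in each of 4 groups. The authors deposited raw read counts per Entrez gene with a gene length, per the file headers. Per the submitters' processing notes the tools were edgeR 3.8.2, limma 3.22.0, featureCounts and CASAVA 1.8.2, and the build mm10. Which step each made, which aligner was used and whether strand was read is not given in the sources used here. Without strand, reads of overlapping antisense genes cannot be told apart.

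Symbols and coordinates came from RefSeq GRCm38.p6 (the mm10 assembly) by Entrez identifier. 25275 of 27179 identifiers had a symbol. Genes without one held 0.493% to 1.07% of the counts. In R 4.3.3 with edgeR 4.0.16, genes were kept by filterByExpr (12057) and scaled by TMM, and 1 model of the 4 groups took in all 12 libraries (glmQLFit, robust, 8 residual degrees of freedom). Tests were two-sided. RPKM is TMM-scaled CPM over the deposited length. Log2 CPM used a prior count of 2. The procedure was tested on simulated data. The alternatives were DESeq2 1.42.0, limma voom 3.58.1, other scalings, filters and fits, a replicate block and each library left out. Transcript windows came from GENCODE M21. The 9 members, the gene lists and the motifs were chosen with earlier results of these data known. The genes named are the members, up to 4 called genes with the largest rise and 2 with the largest fall of a list, the ligands, receptors and STAT genes, and the nearest genes by r. Irf1, Ciita and the individual markers of cell types were chosen after their values were seen. Protein sequences were not used here. The values of 1 gene of the signalling list are not reported here.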

Additional observations from a re-analysis of the deposited data

How the results depend on the processing

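The members called on day 6 against untreated cells were the same genes, in the same directions, under 21 of 22 alternatives, on day 4 under 20 and on day 2 under 21. The day 6 against day 4 set was the least stable, kept under 10 of 22. Tested against a 1.5-fold change, 4 members were called on day 4 against untreated cells, 2 on day 4 against day 2 and 2 on day 6 against day 4. Without the filter 3 were called on day 6 against day 4. Leaving out 1 library gave 0 to 2 members on day 2, 7 on day 4 and 8 on day 6, 5 to 7 on day 4 against day 2, 3 to 6 on day 6 against day 4 and 8 on day 6 against day 2. All 9 were called for any change except without day 6 replicate 2 (8).

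Of all tested genes 175 were called on day 2, or 416 by DESeq2, 412 in a fit of those groups alone and 11 against a 1.5-fold change. That last test called 1491 on day 4, 4383 on day 6, 615 on day 4 against day 2, 1593 on day 6 against day 4 and 3533 on day 6 against day 2. With 1 library left out the counts were 38 (without day 2 replicate 2) to 603 (without day 6 replicate 2) on day 2 and 3878 to 6143 on day 4. They were 7626 to 8653 on day 6, 1876 (without day 4 replicate 2) to 4193 on day 4 against day 2, 4296 to 6853 on day 6 against day 4 and 6808 to 8132 on day 6 against day 2.

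The members' values that changed sign were all uncalled. On day 2 the log2 fold change ran, with 1 library left out, from -0.10 to 0.45 in Gbp2, -0.10 to 0.32 in Gbp5, -0.35 to 0.22 in Igtp, -0.23 to 0.28 in Irgm1, -0.061 to 0.34 in Irgm2 and -0.50 to 0.75 in Iigp1 (0.084 by limma voom). For Iigp1 on day 6 it ran from -0.14 to 1.11, and was -0.29 with library totals and -0.031 with upper-quartile factors. For Gbp5 on day 4 against day 2 it ran from -0.062 to 0.49. With library totals Gbp7 on day 6 against day 4 was at -0.072 and Iigp1 on day 6 against day 2 at -0.17. The cause was not tested.

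Of all calls on day 4, 52.2% were higher with TMM, 39.1% with library totals and 41.2% with upper-quartile factors. On day 6 these shares were 51.6%, 25.2% and 37.3%. Replicate numbers did not pair the libraries. Deviations of same-numbered libraries had a mean r of 0.0057 over 18 pairs (-0.17 to 0.29). With the replicate number as a block, 0, 7 and 8 members were called on days 2, 4 and 6 against untreated cells, 6 on day 4 against day 2, 5 on day 6 against day 4 and 8 on day 6 against day 2. Of all genes 141, 4931, 8066, 2797, 5431 and 7360 were called with the block in these comparisons, in that order. Genes under 1 CPM, such as Ifng, Il27 and Ciita in untreated cells, rest on a few counts.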
